A study of Mus musculus with 8 samples.

Results

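The sites described here are called adenines that lie near one another but not side by side. In each of 4 lists of called N6-methyladenine (6mA), a site was taken when its nearest other site of the same list, on either strand, was 11 to 150 bases away, a range up to about the DNA length of a nucleosome. Sites on the unplaced contig JH584304 and in windows at chromosome 9 (3 to 3.1 Mb), chromosome 14 (19.4 to 19.5 Mb) and chromosome 2 (98.6 to 98.7 Mb) were left out. Those places hold the other 1595 sites. The rule took 2340 of 17418 sites, called spaced sites below. They are compared with isolated sites, which number 12371 and have no other site within 150 bases, and with 1112 tight sites, which have one within 10 bases. The spaced sites were chosen by the positions of the calls alone, so their number and their distances are a description and carry no test.

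The study sequenced single DNA molecules after native chromatin immunoprecipitation, without crosslinking, with a customized antibody to the histone variant H2A.X. TT2 is a line of mouse embryonic stem (ES) cells, here of a C57BL6 x CBA background, at passage 5 to 10 and grown without feeder cells. The cells were either wild type (WT) or carried a knockout (KO) of Alkbh1, a dioxygenase gene of the AlkB family. The DNA of each genotype was sequenced as a long (L) and a short (S) part. Each of the 4 groups had 2 replicates, but both replicates of a group share a single list, so no difference between lists has a replicate check. The labels speak of repeated sequencing, so the replicates may be technical. Where 4 values are given in a row below, they are in the order WT L, KO L, WT S, KO S. Intervals below are exact 95% intervals of a share (Clopper-Pearson) or of a median (from ranks). They cover counting error only and are too narrow where neighbouring sites share molecules, which the lists do not record.

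In chromatin, DNA is wrapped around histone octamers in nucleosomes joined by short linkers, and enzymes often reach linker DNA more easily than wrapped DNA. 6mA is common in bacteria, while its level in mammalian DNA has been debated. Single-molecule sequencing reads it from the time the polymerase spends at a base: the inter-pulse duration (IPD) ratio compares that time with a predicted value for unmodified DNA. A circular template is read many times, so the coverage at a base counts passes that may come from 1 molecule or several.

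The following runs show how close the calls lie. They were chosen after the values were seen: in each list, among clusters whose 41-base contexts join into 1 run, those with the most spaced sites (the first 2 in WT L). Each is the plus strand of mm10, 5′ to 3′, in lower case. A capital A is a called adenine on the plus strand, and a capital T is the partner of a called adenine on the minus strand.
WT L, chr15:100599085-100599185: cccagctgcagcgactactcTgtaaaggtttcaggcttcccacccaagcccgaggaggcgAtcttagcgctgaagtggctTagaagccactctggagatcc
WT L, chr11:62738032-62738119: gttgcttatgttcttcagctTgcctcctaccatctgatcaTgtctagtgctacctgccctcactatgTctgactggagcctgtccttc
KO L, chr14:19278189-19278283: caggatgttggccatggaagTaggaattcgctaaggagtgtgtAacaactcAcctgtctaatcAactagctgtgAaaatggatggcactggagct
WT S, chr8:49862033-49862141: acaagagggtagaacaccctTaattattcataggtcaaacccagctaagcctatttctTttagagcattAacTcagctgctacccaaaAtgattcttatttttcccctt
KO S, chr17:78326639-78326747: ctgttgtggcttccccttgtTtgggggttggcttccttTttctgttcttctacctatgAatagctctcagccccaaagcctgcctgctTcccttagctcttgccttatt

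The run on chromosome 15 lies in Pou6f1, a gene of a POU family transcription factor, and its 3 sites are 40 and 20 bases apart. Their coverage was 20, 18 and 19, their IPD ratio 2.45, 2.33 and 2.21, and their modified fraction 49.5%, 48.2% and 31.7%. The run on chromosome 11, 6140 bases from the zinc finger gene Zfp287, has 3 calls on the minus strand, 20 and 27 bases apart, each at a coverage of 20. Their IPD ratios were 2.94, 3.15 and 2.71. The sites of each of these runs had nearly the same coverage.

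In the KO L run on chromosome 14, 12268 bases from the gene Gm6122, 5 sites lay within 55 bases at a coverage of 52 to 59, and 2 of them were tight. The WT S run on chromosome 8 is far from genes, 255776 bases from 1700019L22Rik, and its 5 sites had a coverage of 31 to 35 and IPD ratios of 2.04 to 2.92. The KO S run on chromosome 17 lies in Crim1, which encodes a transmembrane protein that binds bone morphogenetic proteins. Its 4 sites were 18, 20 and 30 bases apart, with a coverage of 24 to 29 and modified fractions of 43.7% to 52.1%.

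Spaced sites made up 10.4% to 14.9% of a list. They numbered 400 of 3862 sites (10.4%, 9.41% to 11.4%), 375 of 3044 (12.3%, 11.2% to 13.5%), 1062 of 7142 (14.9%, 14.1% to 15.7%) and 503 of 3370 (14.9%, 13.7% to 16.2%). The 2 S lists had nearly the same share, while the share in KO L was above that in WT L with intervals that just overlap. The comparison of genotypes depended on the setting. With each list reduced to its 3044 highest scores, WT S fell below KO S (9.72% and 14.4%). That cut leaves KO L whole and removes neighbours from the longer lists by construction, so it cannot compare the genotypes. With scores of 30 or more the shares were 2.92%, 5.02%, 7.98% and 6.98%, with WT S above KO S. KO L lay above WT L in both settings. The cut at 30 also removes neighbours, since it keeps only 719, 657, 1804 and 759 sites. It removes different parts of the lists, so it cannot compare the genotypes either. Outside the left-out windows the shares were 11.4%, 13.9%, 16.1% and 16.6%.

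Over 3 bands of coverage up to 50, the share of spaced sites was higher where coverage was higher, in each list. Among sites outside the windows with a coverage of 6 to 10, it was 7.59%, 8.53%, 9.33% and 9.82%. At a coverage of 11 to 20 it was 14.6% (12.7% to 16.5%), 19.1% (16.7% to 21.7%), 15.97% (14.7% to 17.3%) and 19.4% (17.2% to 21.7%). At 21 to 50 it was 23.1%, 26.9%, 26.7% and 34.1%, from 238, 212, 1365 and 355 sites. Above 50 it was 27.3%, 29.4%, 27.7% and 33.3%, from 11, 17, 47 and 21 sites, with no further rise in KO S. Within each of these 3 bands the KO list had the higher share in both parts. The intervals of WT and KO lay apart in L at 11 to 20 (upper limit 16.5% in WT, lower limit 16.7% in KO) and in S at 21 to 50 (29.1% and 29.2%), by a small margin, and overlapped or met in the other bands. The bands were chosen after the data were seen, and with 1 list per group the difference between genotypes was not tested.

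**Figure D1:**
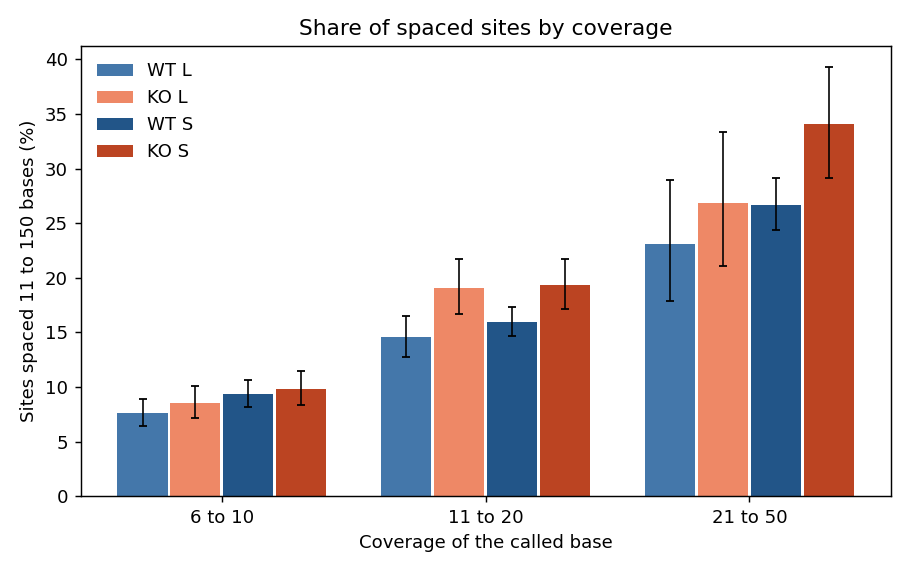
Share of sites (%, vertical axis) whose nearest other site was 11 to 150 bases away, by the coverage of the called base (horizontal axis) in the 4 lists, windows left out; bars are shares and whiskers exact 95% intervals. In each list the share rises over these 3 bands, from 7.59% to 23.1% in WT L and from 9.82% to 34.1% in KO S.

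The distances within the range leaned to its short end, with no separate peak near the length of a nucleosome. The median nearest distance was 54, 59, 49 and 56 bases. In bins of 10 bases, the bin of 11 to 20 held the most sites in each list (76, 61, 197 and 74), and the last bin, up to 150, held 19, 11, 46 and 14. Distances of up to 50 bases covered 47.0%, 44.0%, 51.5% and 44.9% of spaced sites, and distances over 100 covered 22.5%, 18.9%, 19.9% and 19.3%. At the lower limit, 17, 13, 78 and 25 sites had a distance of 9 or 10, just outside, and 26, 20, 44 and 27 one of 11 or 12, just inside. At the upper limit, 5, 2, 10 and 6 sites had 1 of the last 2 distances inside it and 0, 2, 7 and 2 sites 1 of the next 2 outside.

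Taken over all pairs of sites outside the windows, most of the excess of close pairs lay within 400 bases. In WT L, pairs 51 to 100 bases apart numbered 99, which is 377 times as many per base of distance as at 10 to 100 kb. This ratio fell to 232 at 100 to 150 bases, 87.5 at 250 to 300, 7.93 at 400 to 1000 and 1.29 at 1 to 10 kb. KO L went from 602 to 387, 88.7, 8.45 and 1.65 over the same steps. WT S went from 341 to 259, 46.8, 5.46 and 1.05. KO S went from 736 to 429, 85.7, 11.3 and 0.868. At 1 to 10 kb the S lists were thus near the level of 10 to 100 kb, while the L lists lay somewhat above it.

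**Figure D2:**
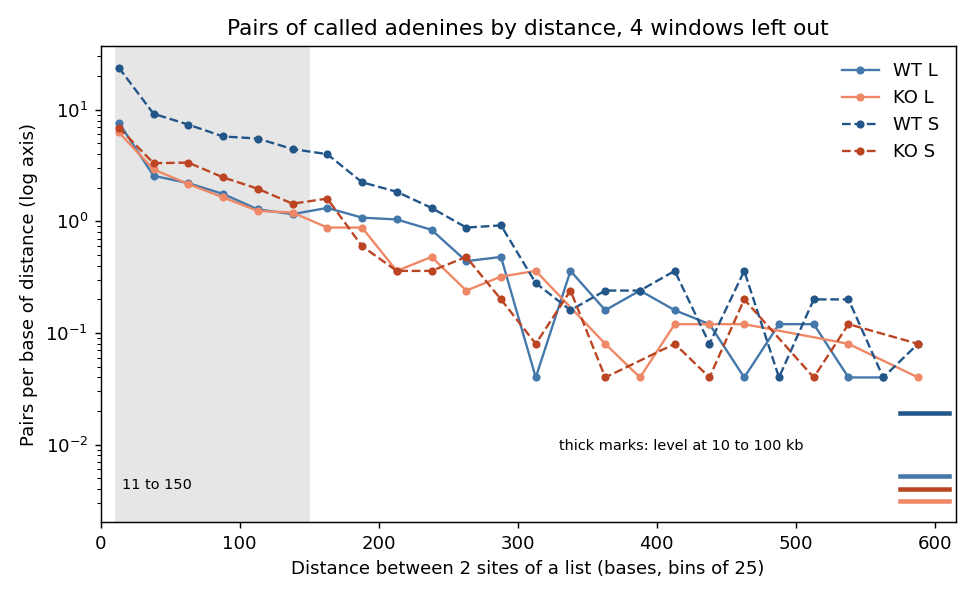
Pairs of sites per base of distance (log vertical axis) against the distance between the 2 sites in bases (horizontal axis, bins of 25, bins without a pair not drawn), for the 4 lists without the left-out windows; the grey band is the range of 11 to 150 bases and thick marks give the level at 10 to 100 kb. All 4 curves fall from the left without a second peak, and lie near or under 1 pair per base beyond 250 bases.

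Joined into clusters, most spaced sites stood in pairs. A cluster here is a chain of sites, each within 150 bases of the next, with at least 1 spaced site, so that it can also hold tight sites. There were 193, 178, 503 and 239 clusters. Pairs made up 157, 146, 366 and 189 of them (81.3%, 82.0%, 72.8% and 79.1%), 27, 17, 92 and 34 had 3 sites, and 9, 15, 45 and 16 had 4 or more. The largest held 6, 6, 11 and 9 sites. All sites were spaced ones, without tight sites, in 177, 165, 432 and 216 clusters.

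Cluster spans were short and alike between the lists. From first to last site, the median span was 69 (56 to 78), 67.5 (60 to 78), 71 (64 to 81) and 69 (59 to 77) bases. A span of up to 150 bases, under which all sites of a cluster would fit on the DNA of a nucleosome, was found in 186, 168, 459 and 219 clusters (96.4%, 94.4%, 91.3% and 91.6%). Since the rule limits the distance within a pair, this share is partly fixed by it. Clusters of 3 or more sites had medians of 90, 117.5, 112 and 126.5 bases. They can span more than 150 bases, but the chaining at 150 bases bounds their span too, and most had only 3 sites. A span over 300 bases occurred in 1 cluster of KO L and 1 of KO S, and the longest were 256, 319, 292 and 323.

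**Figure D3:**
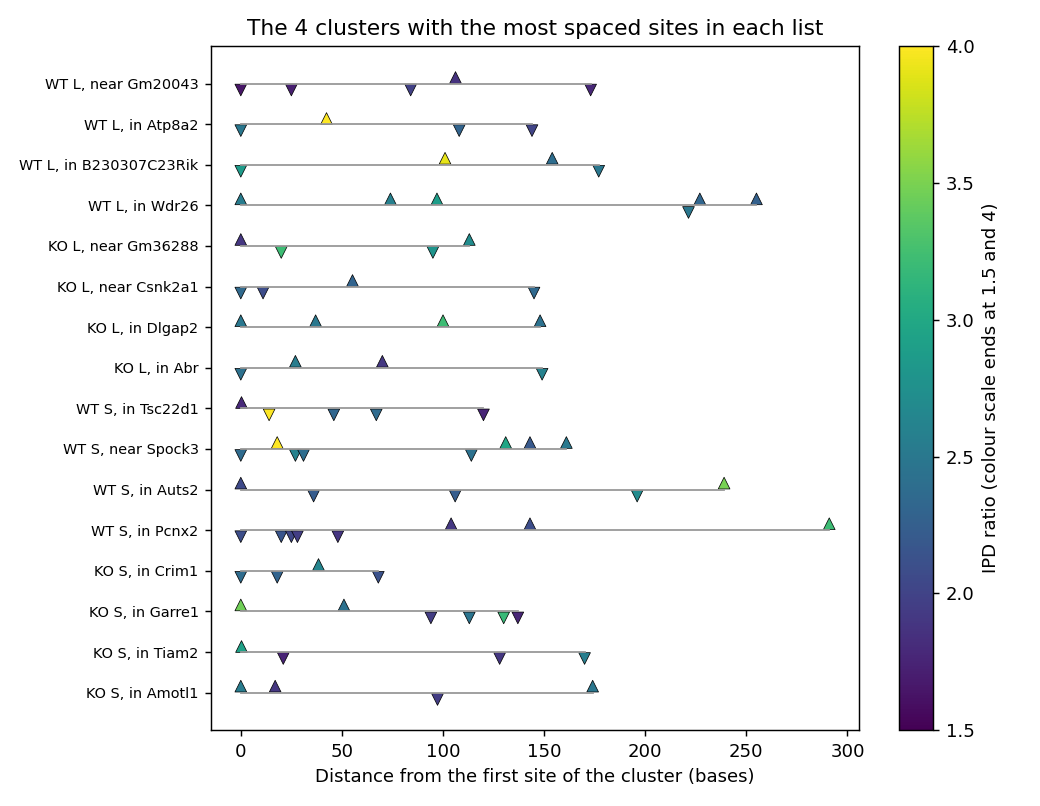
The 4 clusters with the most spaced sites in each list, 1 per row, named by the gene they lie in or nearest to. The horizontal axis is the distance in bases from the first site, upward triangles are plus-strand and downward triangles minus-strand calls, and colour gives the IPD ratio; spans run from 69 bases in Crim1 to 292 in Pcnx2, and 15 of the 16 clusters hold calls on both strands.

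In WT L the cluster with the most spaced sites lay on chromosome 13 (15344100 to 15344273), 31351 bases from the lncRNA gene Gm20043. Its 5 sites had a coverage of 30 to 34, low IPD ratios of 1.64 to 1.98 and modified fractions of 8.3% to 45.8%. The cluster in Atp8a2, which encodes a phospholipid flippase (chromosome 14, 59996711 to 59996855), had 4 sites, of which the plus-strand one had an IPD ratio of 5.13 at a coverage of 10. The 3 minus-strand sites had ratios from 2 to 2.49 at coverages of 19, 26 and 25. In B230307C23Rik, 4 sites (chromosome 16, 98011071 to 98011248) had coverages of 12 to 14. In Wdr26, which encodes a subunit of an E3 ubiquitin ligase complex, 6 sites (chromosome 1, 181202986 to 181203241), 4 of them spaced, had coverages of 12 to 17 and IPD ratios of 2.27 to 2.88.

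In KO L the 4 clusters held 4 spaced sites each. Dlgap2 (chromosome 8, 14138600 to 14138748) codes for a scaffold of the postsynaptic density, and its cluster had all 4 calls on the plus strand, with IPD ratios of 2.43 to 3.21. In Abr (chromosome 11, 76443104 to 76443253), the strands were 2 and 2 and the modified fractions 34.5% to 66.5%. The cluster on chromosome 2 (152212926 to 152213071) lay 13464 bases from Csnk2a1, a catalytic subunit gene of casein kinase 2, with coverages of 24 to 26. That on chromosome 3 (78428140 to 78428253) lay 17373 bases from Gm36288 and had modified fractions from 18% to 97.1%.

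In WT S the cluster in Tsc22d1, a gene of a leucine zipper transcriptional regulator (chromosome 14, 76505759 to 76505879), had 5 spaced sites, 4 of them on the minus strand. One minus-strand site had an IPD ratio of 4.11 and a modified fraction of 66.4%, and the other four had ratios of 1.76 to 2.36 at nearly the same coverage (24 to 29 for all 5). The cluster on chromosome 8 (62871510 to 62871671), 79329 bases from Spock3, had 8 sites, 5 of them spaced, at coverages of 22 to 27. Auts2, known for its part in neuronal development, held 5 spaced sites over 240 bases on chromosome 5 (132189047 to 132189286). One of these had a satellite-like context (it shared 3 or more words of 12 bases with contexts of the left-out places) and 1 a short tandem repeat (16 or more bases with a period of up to 6). Pcnx2 held 8 sites on chromosome 8 (125826283 to 125826574), 5 on the minus strand followed by 3 on the plus strand, and 4 had a short tandem repeat in the context.

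In KO S, Crim1 came first, with the run printed above. Garre1, which encodes an effector of the GTPase Rac1 (chromosome 7, 34307002 to 34307139), had 6 sites, 4 of them spaced, with coverages of 23 or 24 throughout and IPD ratios from 1.76 to 3.46. Tiam2, which encodes an exchange factor for Rac1 (chromosome 17, 3390538 to 3390708), had 4 spaced sites, and its plus-strand site was at a coverage of 15 against 35 as the highest. The cluster in Amotl1, a gene of the angiomotin family (chromosome 9, 14586814 to 14586988), had coverages of 21 to 25 and modified fractions of 23.8% to 51%.

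Sites of a pair mostly had similar coverage. Among nearest pairs at 11 to 150 bases on the same strand, the higher coverage was a median of 1.07, 1.08, 1.08 and 1.07 times the lower (123, 119, 364 and 157 pairs). Between opposite strands it was 1.14, 1.13, 1.13 and 1.14 (97, 87, 251 and 127 pairs). For same-strand neighbours over 10 kb apart it was 1.5, 1.5, 1.6 and 1.5. Coverage was exactly equal in 39.8%, 35.3%, 23.9% and 36.3% of same-strand pairs, in 20.6%, 19.5%, 18.3% and 17.3% of opposite-strand pairs and in 7.83%, 7.23%, 5.94% and 8.15% of the distant same-strand neighbours. The interval for equal coverage on the same strand (31.1% to 49.1%, 26.8% to 44.6%, 19.6% to 28.6% and 28.8% to 44.3%) lay above that of opposite strands in WT L and KO S (upper limits 30.03% and 25.04%), while the intervals overlapped in KO L and WT S. The Spearman correlation of the coverages was 0.859, 0.815, 0.848 and 0.925 on the same strand and 0.763, 0.916, 0.792 and 0.797 on opposite strands, as a description over pairs that share a library and their depth, against -0.03, -0.05, -0.05 and 0.04 for distant same-strand neighbours. The coverages were within a factor of 1.25 in 81.3%, 81.5%, 78.6% and 82.8% of same-strand and in 73.2%, 82.8%, 70.5% and 66.1% of opposite-strand pairs, so that a minority of pairs differed by more. In KO L the opposite strands were at least as alike as the same strand by these last measures.

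**Figure D4:**
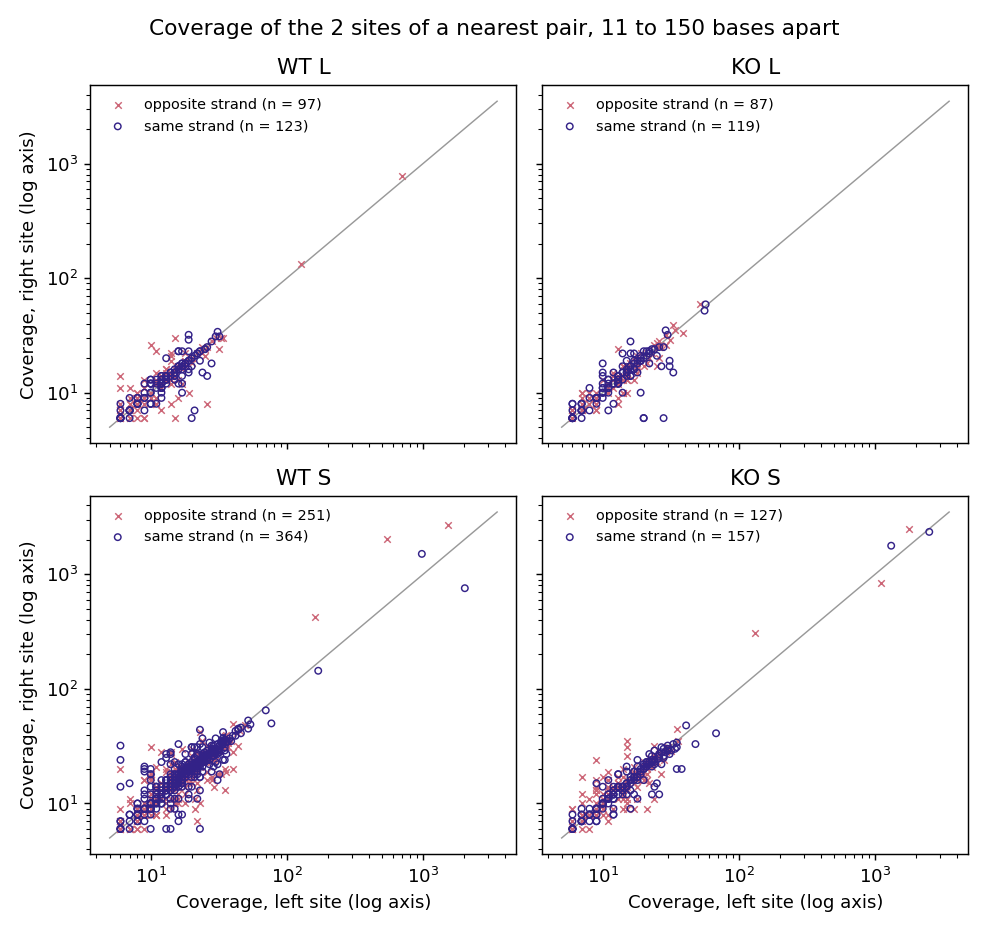
Coverage of the left site (horizontal, log axis) against that of the right site (vertical, log axis) for each nearest pair 11 to 150 bases apart, 1 panel per list; circles are same-strand and crosses opposite-strand pairs, and the grey line marks equal coverage. Points follow the line in all 4 panels, and coverages above 100 come from few pairs.

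The kinetic signal of the 2 sites of a pair was far less alike than their coverage. The Spearman correlation of the IPD ratios was 0.07, 0.21, 0.14 and 0.33 on the same strand and 0.21, -0.02, 0.16 and 0.18 on opposite strands, again a description. For distant same-strand neighbours it was 0.02, 0.004, -0.02 and -0.07. The largest value, 0.33 in KO S over 157 pairs, was still well below that of coverage. The modified fractions of same-strand pairs differed by a median of 18.5, 20.4, 21.1 and 17.4 percentage points, against 25, 25.4, 25.5 and 25.8 for distant same-strand neighbours. Opposite-strand pairs differed by 20.5, 21.4, 22.3 and 19.2 points, against 22.2, 21.75, 23.8 and 25.8 for distant opposite-strand neighbours. That contrast was small in the lists other than KO S. Coverage was not matched in these comparisons.

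The strand of the nearest neighbour, which the rule did not use, was the same in 55.3% to 59.5% of spaced sites, and by pairs the excess over an even split was beyond counting error in KO L and WT S only. It was the same for 56.5% (51.5% to 61.4%), 59.5% (54.3% to 64.5%), 59.3% (56.3% to 62.3%) and 55.3% (50.8% to 59.7%) of spaced sites. Nearest neighbours over 150 and up to 1000 bases away shared the strand in 50.7%, 51.1%, 52.1% and 50.6%, and tight sites in 77.1%, 76.9%, 78.0% and 72.1%. Within the range, the share at 11 to 20 bases was 60.5%, 68.9%, 65.0% and 58.1%, and at 100 to 150 bases 58.9%, 50.7%, 61.6% and 48.5%. Since neighbours that are each other's nearest enter that share as 2 sites, pairs were also counted once: 55.9% (49.1% to 62.6%), 57.8% (50.7% to 64.6%), 59.2% (55.2% to 63.1%) and 55.3% (49.3% to 61.2%) of 220, 206, 615 and 284 pairs shared the strand. These intervals include an even split in WT L and KO S. Clusters with all calls on 1 strand numbered 104 of 193, 100 of 178, 271 of 503 and 117 of 239. Among the 36, 32, 137 and 50 clusters with 3 or more sites they were 11, 9, 49 and 12. The plus and minus strands held 202 and 198, 183 and 192, 507 and 555, and 237 and 266 spaced sites.

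Spaced sites had higher coverage and a lower IPD ratio than isolated ones, and the second difference shrank at like coverage. Median coverage was 12, 13, 17 and 14, against 9, 9, 12 and 10 at isolated sites. At tight sites it was 15, 14, 19 and 16.5. The median IPD ratio was 2.54 (2.45 to 2.65), 2.54 (2.48 to 2.61), 2.48 (2.42 to 2.53) and 2.57 (2.49 to 2.66), against 2.68 (2.63 to 2.71), 2.70 (2.64 to 2.74), 2.68 (2.64 to 2.71) and 2.785 (2.74 to 2.83). The intervals overlapped in WT L and lay apart in the other lists. With each cluster counted once, the spaced median was 2.635 in WT L, 2.675 in KO L and 2.75 in KO S. These values fell within the intervals of the isolated sites of the full lists. In WT S the value was 2.535, still below that interval. A value per cluster is not the same measure as a value per isolated site. With the lists cut to equal length, the spaced median was 2.65 in WT S, within the interval of the full list, and 2.545 in KO S, below it. Isolated sites of the cut lists were not compared, so whether the separation holds there was not tested. At a coverage of 8 to 20 the spaced sites had 2.59, 2.60, 2.65 and 2.70 and the isolated ones 2.65, 2.68, 2.72 and 2.75. In 6 narrow bands of coverage from 11 to 35, the median IPD ratio was lower in spaced sites in 5, 1, 2 and 3 bands. The ratio itself fell with coverage, from 3.03 at 6 to 10 to 2.16 at 21 to 50 among spaced sites of WT S.

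The modified fraction, given only at a coverage of 11 or more, was lower in spaced than in isolated sites, also at like coverage in most bands. It was given for 257, 248, 859 and 361 spaced sites, with medians of 66.2% (60.9% to 70.3%), 64.35% (59.4% to 67.1%), 60.7% (58.5% to 63.6%) and 67.6% (62.8% to 73.4%). Isolated sites had 77.3%, 74.75%, 77.9% and 83.8%. At a coverage of 11 to 20 the spaced sites had 70.3% (66.2% to 74.3%), 68.85% (65.3% to 74.7%), 71.8% (67.7% to 76.5%) and 80.5% (75.7% to 84.8%). The isolated sites of that band had 79.8% (77.6% to 81.6%), 78.3% (75.1% to 81.4%), 83.0% (81.3% to 84.3%) and 87.95% (85.8% to 90.0%), with the intervals apart in each list. At 21 to 50 the spaced medians were 55.9%, 46.1%, 49.65% and 48.8% and the isolated ones 53.7%, 54.15%, 59.6% and 56.75%. There the spaced sites were lower in KO L, WT S and KO S, with intervals apart in WT S and KO S, and were not lower in WT L. In the 6 narrow bands the fraction was lower in spaced sites in 20 of 24 cases over the 4 lists. The tight sites had 75%, 64.3%, 75.1% and 83.75% at a coverage of 11 to 20, below the isolated ones in each list. Their intervals lay apart from the isolated ones in KO L only. Spaced sites were lower than tight ones in WT L, WT S and KO S, but with overlapping intervals. At 21 to 50 the tight medians were 45.6%, 53.2%, 43.1% and 55.5%, again below the isolated ones, with intervals apart in WT S only. A median below that of isolated sites was thus not particular to spaced sites.

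**Figure D5:**
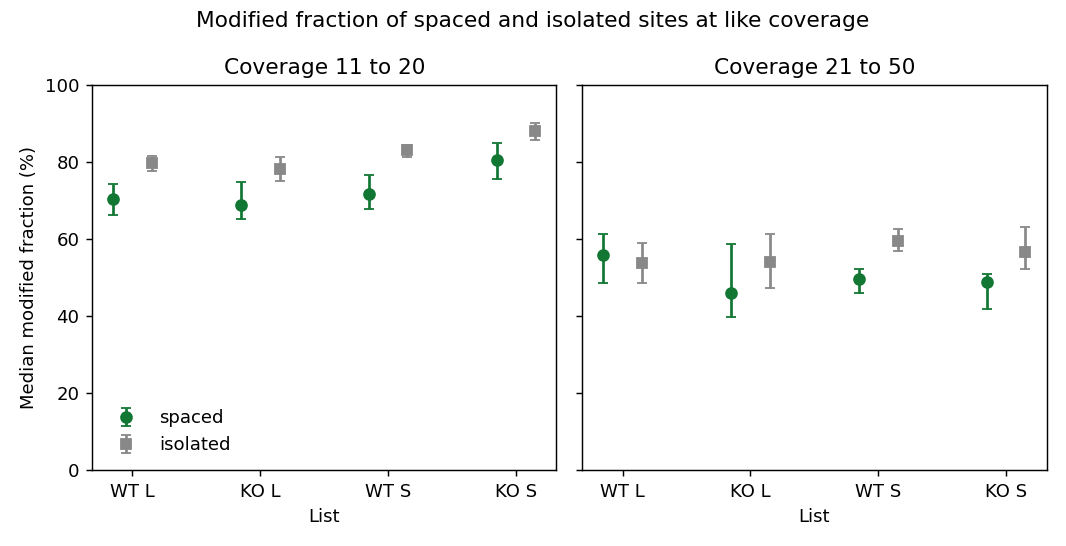
Median modified fraction (%, vertical axis) of spaced (circles) and isolated (squares) sites in the 4 lists (horizontal axis) at a coverage of 11 to 20 (left) and 21 to 50 (right), with exact 95% intervals of the median. At 11 to 20 the spaced medians lie between 68.85% and 80.5% and the isolated ones between 78.3% and 87.95%; at 21 to 50 the order holds in all lists but WT L.

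A second score of the deposited lists, which states how well the kinetics fit 6mA in particular, reached 20 at 10.8%, 10.9%, 14.4% and 12.1% of spaced sites (43, 41, 153 and 61). Isolated sites had 7.97%, 7.32%, 12.2% and 10.5%, with intervals that overlapped the spaced ones in each list. The main score of a call had a median of 24, 24, 25 and 24 and a highest value of 74, 54, 116 and 127. Of the sites with a modified fraction, without matching of coverage, it was 100% at 13.6%, 12.1%, 13.04% and 15.5% of spaced and at 22.1%, 20.2%, 23.1% and 25.05% of isolated sites, with intervals apart in each list. It was under 25% at 5.84%, 6.05%, 8.15% and 9.42% of spaced and at 4.98%, 5.31%, 5.43% and 3.60% of isolated sites, with intervals apart in the S lists only.

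The base after the called adenine was more often an adenine in spaced than in isolated sites, in each list. Its share was 42.25% (37.4% to 47.3%), 45.6% (40.5% to 50.8%), 45.3% (42.3% to 48.3%) and 36.4% (32.2% to 40.8%). Isolated sites had 32.5%, 32.9%, 31.1% and 27.4%, with upper limits of 34.3%, 34.9%, 32.4% and 29.2%. For adenines of these 41-base contexts that were not the called one, the share was 37.2%, 37.8%, 36.2% and 35.1% around spaced and 36.1%, 35.4%, 35.6% and 33.9% around isolated sites. Spaced sites lay above the adenines around them, in KO S within the interval, and isolated ones lay below. Tight sites had an adenine next in 56.7%, 55.9%, 55.0% and 38.4%, above the spaced share in each list. The trait was thus not particular to spaced sites. Of 4 ranges of distance, 11 to 20 bases had the highest share in KO L, WT S and KO S (57.4%, 51.8% and 52.7%), and 21 to 50 bases in WT L (51.8%). At 100 to 150 bases it was 27.8% in WT L and 23.7% in KO S, near or under the isolated level, but 45.1% in KO L and 41.7% in WT S. A guanine followed in 20.25%, 21.9%, 19.7% and 29.8% of spaced sites and in 21.7%, 23.7%, 22.1% and 27.7% of isolated ones, so that KO S was the list with the most AG in both.

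GC content of the 41 bases was 41.3% ± 11.6 (SD over sites), 41.7% ± 11.9, 42.2% ± 11.2 and 43.5% ± 11.9 in spaced sites, and 40.7%, 41.4%, 40.8% and 42.3% in isolated ones. A CpG occurred in 27.75%, 29.1%, 32.02% and 35.6% of spaced contexts against 27.1%, 29.1%, 28.5% and 30.9%. Short tandem repeats were seen in 3.75%, 3.47%, 2.26% and 2.78% of spaced contexts and in 11.9%, 15.4%, 11.9% and 6.40% of tight ones. Isolated contexts had 2.59%, 1.93%, 2.38% and 1.23%, with intervals that overlapped the spaced ones in each list. Satellite-like contexts made up 1.25%, 1.87%, 2.26% and 2.19% of spaced sites (5, 7, 24 and 11), against 1.17%, 1.43%, 0.849% and 0.553% of isolated ones. The intervals lay apart in WT S (1.45% to 3.34% and 0.612% to 1.15%) and in KO S (1.10% to 3.88% and 0.295% to 0.944%), and overlapped in the L lists. Only 16 clusters of WT S and 4 of KO S held such contexts, so these intervals, which count sites, are too narrow. Tight sites had 3.98%, 7.69%, 3.52% and 8.14%, above the spaced share in each list. The excess over isolated sites was thus not particular to spaced sites.

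Clusters almost never came back in another list, and the ones that did were satellite-like. Of the 193, 178, 503 and 239 clusters, 1, 0, 3 and 3 overlapped a cluster of at least 1 other list, at 3 loci in all, and each had satellite-like contexts. The locus on chromosome 9 (35305216 to 35305503 in KO S), in the lncRNA gene Gm33838, had 9 sites in KO S, 7 in WT S and 6 in WT L, of which 4, 3 and 1 were spaced, with median coverages of 996, 980 and 424. The one on chromosome 12 (3109892 to 3110094 in WT S) had 3 WT S sites and 2 KO S sites at IPD ratios of 1.29 to 1.55, and the third lay on the unplaced contig GL456392. Counting any site of the other genotype's list of the same part within a cluster or up to 150 bases beside it, overlapping clusters included, such a site was found for 2 of 193 WT L, 1 of 178 KO L, 5 of 503 WT S and 3 of 239 KO S clusters. The same base was called in the other genotype for 0 of 400, 0 of 375, 3 of 1062 and 5 of 503 spaced sites, and all 8 had satellite-like contexts. Of isolated sites, the same base was called in the other genotype for 1 of 2900, 1 of 2173, 2 of 4948 and 1 of 2350. Rare recurrence was thus not particular to spaced sites. The lists hold called bases only, so the depth at these places in another list is unknown.

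The share of spaced sites in genes was close to that of isolated ones. On chromosomes 1 to 19, X and Y, 52.25% (47.2% to 57.2%), 54.2% (48.9% to 59.3%), 53.5% (50.4% to 56.5%) and 49.4% (44.9% to 53.9%) of spaced sites lay between the start and end of a RefSeq gene. For isolated sites the shares were 52.7%, 50.9%, 52.1% and 51.5%, within these intervals. Exons and introns were not told apart, since the gene table has starts and ends only. Within the window from 250 bases before to 50 after a gene's start lay 2, 2, 3 and 5 spaced sites (0.50%, 0.536%, 0.284% and 1.01%), against 0.242%, 0.5996%, 0.385% and 0.256% of isolated ones. In KO S the intervals were 0.329% to 2.35% for the spaced and 0.0941% to 0.557% for the isolated sites, which overlap. Of 20 pluripotency genes with 5 kb on each side, Tet1 held a cluster in WT S and Tcl1 one in KO S. Of 18 genes of the DNA break response, in which H2A.X is phosphorylated, Atm held one in WT S. Of 16 genes of adenine and DNA methylation enzymes, Tet1 was again the only one, and Alkbh1 held none. Of all 21883 protein-coding genes taken with the same flanks, 0.452%, 0.448%, 1.20% and 0.507% held a cluster, so that 1 hit in a short list is not read as a result about the list.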

How the data were processed

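Per the labels, 8 samples (2 replicates of each genotype and DNA part) point to 4 deposited lists of called adenines, so values belong to a list and not to a replicate. Positions are in mm10, as the submitters' processing notes name it. For the caller's version, the aligner and any filters, the sources used here give nothing. Each deposited line gives a position, a strand and a 41-base context. The deposited score has a lowest value of 20 and no stated scale, coverage is deposited as a plain signal, the deposited IPD ratio is linear, and the modified fraction (turned into percent) is given at a coverage of 11 or more. Values were used as deposited, with no filter. The lists hold called bases only, so the depth elsewhere is unknown. Median coverage over all sites of a list was 11 to 14.

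Nearest sites were found in the whole list and windows were left out afterwards. Clusters were chained at 150 bases. Satellite-like means that a context has at least 3 words of 12 bases, on either strand, in common with contexts of the left-out windows, and a short tandem repeat was a stretch of 16 or more bases with a period of up to 6. Genes and gene starts came from RefSeq tables of GRCm38.p6, which has the chromosome coordinates of mm10. The classification and the median's interval were tested on simulated data. Python 3.11.15, numpy 2.4.6, pandas 2.3.3 and scipy 1.17.1 were used.

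The rule for named clusters took the 4 clusters per list with the most spaced sites (ties by span) and up to 8 that overlapped one of another list, with the gene around or nearest to them. The members, this rule and the 3 gene lists were chosen with earlier results of these data known.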

Additional observations from a re-analysis of the deposited data

How the results depend on the processing

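No paired analysis was possible because both replicates of a group share a single list, and for the same reason no replicate could be left out. The same-strand share stayed within its interval in all 28 recomputed values over 7 settings and 4 lists, and removing satellite-like contexts or short tandem repeats moved none of the 3 results out of its interval in any list. The share of spaced sites moved in 18 of 28 and the median IPD ratio in 14 of 36. With scores of 30 or more only, the share was 2.92%, 5.02%, 7.98% and 6.98% (21, 33, 144 and 53 sites, in the order of lists used above), and the IPD ratio 2.83, 2.66, 2.685 and 2.80. There WT S lay above KO S, where both had 14.9% before, but this cut also removes neighbours and cannot compare the genotypes. With a coverage of 11 or more the share was 11.9%, 14.7%, 16.5% and 17.8% and the IPD ratio 2.37, 2.47, 2.36 and 2.41. Distances of 11 to 200 bases gave 12.5%, 14.2%, 16.9% and 16.6%, and of 21 to 150 gave 8.39%, 10.3%, 12.1% and 12.7%, a change the setting builds in. Cutting each list to its 3044 highest scores, which removes neighbours from longer lists by construction, gave 9.17% and 9.72% in the WT lists (L, then S), against 12.3% and 14.4% in the KO lists, and an IPD ratio of 2.65 in WT S. Taken as a median over clusters, the IPD ratio was 2.675, 2.535 and 2.75 in the lists other than WT L, and at a coverage of 8 to 20 it was 2.65 in WT S and 2.70 in KO S. Apart from settings whose construction is named here, the cause was not tested. Calls at a coverage of 6 to 10, which have no modified fraction, limit what can be said of weakly covered pairs.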

Other observations

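The order of strands in opposite-strand pairs was recorded by distance. Read along the plus strand, the minus-strand site came first in 68.3% (55.04% to 79.7%), 64.9% (47.5% to 79.8%), 67.9% (59.3% to 75.7%) and 75.6% (59.7% to 87.6%) of opposite-strand pairs over 150 and up to 300 bases apart, from 60, 37, 134 and 41 pairs. Within 10 bases it came first in 45.2%, 39.1%, 30.2% and 30.3%, of 31, 23, 86 and 33 pairs, with intervals of 27.3% to 64.0%, 19.7% to 61.5%, 20.8% to 41.1% and 15.6% to 48.7%, which overlap those at 150 to 300 bases in the L lists. At 11 to 150 bases the share was 60.5%, 52.7%, 56.9% and 56.8%. At 300 to 1000 bases it was 55.6%, 44.4%, 42.1% and 84.6%, of only 18, 9, 38 and 13 pairs, and so turned back in KO L and WT S. Sites of larger clusters enter several pairs, so these intervals are too narrow. In clusters of 2 sites, which count each site once, it was 51.6%, 61.8%, 58.3% and 65.5% of 64, 55, 144 and 84, and only the interval of KO S (54.3% to 75.5%) lay above an even split. At 10 to 100 kb it was 47.04%, 58.5%, 48.7% and 60.7%, so the KO lists leaned the same way at distances beyond the span of any cluster. Sites of clusters enter those distant pairs too. The pattern was noticed in these data.

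A KO S cluster on chromosome 17 lay 2950 bases from Rn18s-rs5, a ribosomal RNA gene. It held 6 sites (39843325 to 39843404), 3 of them spaced, with coverages of 8 to 11 and IPD ratios of 2.21 to 4.84, and the modified fraction was 100%, 82.6% and 100% at the 3 sites that have one. It was picked after its values were seen.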
